A study of Mus musculus with 9 samples.

Results

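The Iroquois homeobox genes Irx1, Irx2, Irx3, Irx5 and Irx6, with the antisense transcript Irx3os, were followed through brain RNA-seq of 9 mice. These 6 genes were taken by name from the 38621 genes of the deposited expression table. They were chosen because their levels were lower in the ICH mice than in the sham mice in earlier results of the same data, so that difference is given here as a description, and counts of genes that met the study's rule in it test nothing. The mice were C57BL/6 in 3 groups of 3. Sham mice carried no hematoma: the labels call them untreated, and the methods of the study describe a saline injection. ICH mice received an injection of their own blood into the brain, a model of intracerebral hemorrhage. Mice of the feb group received febuxostat, an inhibitor of the uric acid producing enzyme xanthine oxidase, by gavage before the same blood injection. The labels give the tissue as brain, without the region that was dissected.

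Iroquois proteins are transcription factors of the TALE class, whose homeodomain carries an extra loop. In the developing neural tube they are known for marking the diencephalon, midbrain and hindbrain and for being largely absent from the telencephalon, and they take part in giving neurons of these regions their identity. In mouse they lie in 2 clusters of 3 coding genes. On chromosome 13, Irx1, Irx2 and Irx4 spanned 1312 kb of the GRCm38 assembly. On chromosome 8, Irx3, Irx5 and Irx6 spanned 882.4 kb, and Irx3os ran from within Irx3 on the opposite strand.

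The antisense pair is shown first because a stretch of exon belongs to both of its genes. Irx3 lies at chr8:91798525-91802067 on the minus strand and Irx3os at chr8:91800415-91807539 on the plus strand. The first exon of Irx3os, at chr8:91800415-91800538, lies wholly inside a coding exon of Irx3. All 124 bases of that exon, read on the plus strand from GENCODE M21 transcripts on GRCm38, are shared between the 2 genes and are complementary to Irx3 mRNA.
Irx3os first exon: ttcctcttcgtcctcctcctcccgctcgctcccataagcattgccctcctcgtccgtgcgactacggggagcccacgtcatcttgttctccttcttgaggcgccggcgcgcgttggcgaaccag
The shared stretch was 4.49% of the exon bases of Irx3 and 3.33% of those of Irx3os, a small part of either gene. The library kit keeps the strand, but the strand setting of the counting is not given in the sources used here. An exon of Irx3os began 108 bp beyond the 5′ end of Irx3, on the opposite strand. Whether a transcript starts with that exon was not checked.

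Irx2, at chr13:72628820-72634198 on the plus strand, had the largest fold between sham mice among the 6 genes, and the sequence before its start is shown for that reason. The 250 bases before the RefSeq start (GRCm38, plus strand) are given with the only CCAAT box in capitals.
Irx2 upstream, chr13:72628570-72628819: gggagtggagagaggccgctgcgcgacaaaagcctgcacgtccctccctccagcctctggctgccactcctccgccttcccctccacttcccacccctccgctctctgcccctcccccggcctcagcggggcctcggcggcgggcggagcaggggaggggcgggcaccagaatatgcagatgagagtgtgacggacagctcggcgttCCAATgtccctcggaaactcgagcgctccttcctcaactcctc
Promoter windows of RefSeq, which run past the start into the gene, were matched for 3 of the 6 genes, Irx2, Irx3 and Irx3os. Searched on both strands, CCAAT was present in 1 of these 3 windows and in 37.4% of all 32851 promoters. With this single match, no words overlapped. The letters TATAAA were in none of the 3 windows and in 13.6% of all promoters. ACANNTGT, a word bound by Iroquois proteins, was likewise in none of the 3 and in 7.38% of all promoters. The Irx2 window held 25 CpG dinucleotides, that of Irx3 held 14 and that of Irx3os held 6, against a median of 7 over all promoters.

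The libraries held 23065757 to 29538009 reads on genes, and markers of neurons were abundant in each (summed RPKM of 4 genes 418 to 490). RPKM are read counts scaled to exon length and to the number of mapped reads. Choroid plexus markers were low in all feb libraries, as given below. By Hox genes and cerebellar markers, a single library stood apart from the other 8. In sham replicate 1 the summed RPKM of 11 Hox genes, which mark the hindbrain and spinal cord, was 16.8, against 0.0407 to 0.101 elsewhere, and all 11 were highest there. The 4 markers of cerebellar neurons were also all highest in sham replicate 1, with a summed RPKM of 6.12 against 0.655 to 1.12 in the other mice. The same library held the highest value of all 6 Iroquois genes, so the group differences of the Iroquois genes, and the counts over neighbors and lists, are given with and without it. In bulk tissue, fewer cells of a type and less RNA per cell cannot be told apart.

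**Figure D1:**
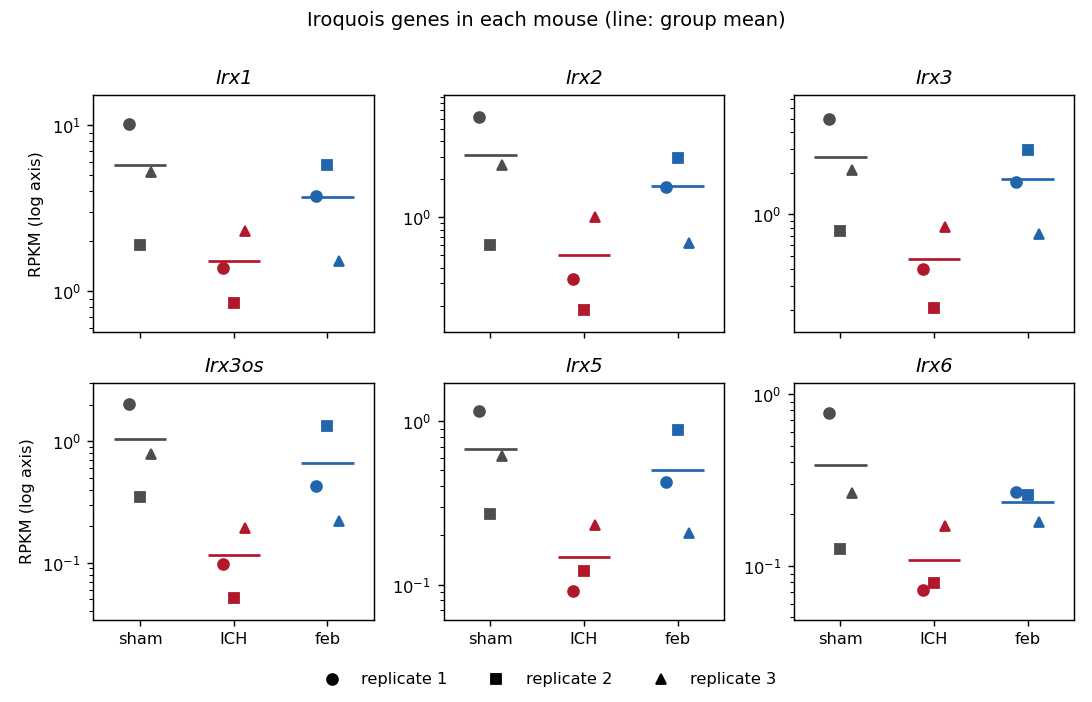
Level of each Iroquois gene in each mouse, in RPKM on a log axis, by group, with the shape giving the replicate and the line the group mean of 3 mice. In every panel sham replicate 1 is the highest point, and the lowest point is an ICH mouse.

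Irx1, the most abundant member, was measured at 10.1, 1.89 and 5.20 RPKM in the sham mice, at 1.38, 0.849 and 2.30 in the ICH mice and at 3.76, 5.76 and 1.53 in the feb mice (replicates 1, 2 and 3 in each group). The third ICH mouse exceeded the second sham mouse and the third feb mouse, so the groups overlapped. Group means were 5.73 ± 4.13 RPKM in sham, 1.51 ± 0.735 in ICH and 3.68 ± 2.11 in feb (SD, n = 3).

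Irx2, its neighbor on chromosome 13, was at 6.16, 0.606 and 2.60 RPKM in sham, at 0.324, 0.185 and 1 in ICH and at 1.74, 2.96 and 0.621 in feb. The order of the mice within each group was the same as for Irx1, and the groups overlapped again. The means were 3.12 ± 2.81, 0.503 ± 0.436 and 1.77 ± 1.17 RPKM (SD, n = 3).

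Irx4, the other coding gene of that cluster, was not chosen for its level and was close to absent. No read fell on it in any ICH mouse, and 0 to 8 reads did in the other 6. It was at 0.104, 0.0147 and 0.0136 RPKM in sham and at 0.0145, 0.122 and 0 in feb, so it reached 0.1 RPKM only in sham replicate 1 and feb replicate 2, which also held the highest Irx1 of their groups. It did not enter the fit.

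Irx3, which in the neural tube sets a boundary of neuronal identity, was at 4.98, 0.762 and 2.13 RPKM in sham, at 0.399, 0.206 and 0.816 in ICH and at 1.74, 2.98 and 0.722 in feb. The third ICH mouse was above both the lowest sham and the lowest feb mouse. Its means were 2.62 ± 2.15, 0.474 ± 0.311 and 1.81 ± 1.13 RPKM (SD, n = 3).

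Irx3os, the long noncoding RNA described above, was at 2.02, 0.349 and 0.783 RPKM in sham, at 0.0987, 0.051 and 0.195 in ICH and at 0.426, 1.33 and 0.221 in feb. All 3 ICH mice were below every other mouse. The ICH values rested on 9, 5 and 19 reads. Group means were 1.05 ± 0.866, 0.115 ± 0.0732 and 0.659 ± 0.59 RPKM (SD, n = 3).

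Irx5, which acts together with Irx3 in several tissues, was at 1.15, 0.269 and 0.614 RPKM in sham, at 0.0914, 0.122 and 0.232 in ICH and at 0.423, 0.887 and 0.208 in feb. The ICH mice were all below the sham mice, while the lowest feb mouse was within the ICH range. The lowest value was 7 reads. The means were 0.677 ± 0.443, 0.148 ± 0.074 and 0.506 ± 0.347 RPKM (SD, n = 3).

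Irx6, the weakest of the 6, was at 0.774, 0.125 and 0.264 RPKM in sham, at 0.0727, 0.079 and 0.170 in ICH and at 0.269, 0.259 and 0.180 in feb. Here the feb mice were all above the ICH mice, and the ICH and sham mice overlapped. It was counted at 6 to 77 reads a mouse. The means were 0.387 ± 0.342, 0.107 ± 0.0544 and 0.236 ± 0.0486 RPKM (SD, n = 3). Its 3′ end shares 152 exon bases, 4.51% of its own, with Gm45505 on the opposite strand.

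On the per-length RPKM scale, the order of mean levels over the 9 mice was Irx1 (3.64), Irx2 (1.80), Irx3 (1.64), Irx3os (0.608), Irx5 (0.444), Irx6 (0.244) and Irx4 (0.0298). Irx2 and Irx3 could not be ranked, because Irx2 was above Irx3 in only 4 of 9 mice. Irx3os was above Irx5 in 7 of 9. For every other neighboring pair in this order the first gene was higher in 9 of 9 mice.

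Mice of the same group differed widely. The highest sham mouse exceeded the lowest by 4.26-fold (Irx5) to 10.2-fold (Irx2). In the ICH group this range was 2.34-fold to 5.4-fold, and in the feb group 1.49-fold to 6.01-fold. In sham it was replicate 1 that was highest and replicate 2 that was lowest for all 6 genes. In ICH replicate 3 was highest for all 6, and in feb replicate 3 was lowest for all 6.

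The chosen direction, ICH below sham, held for 6 of 6 genes in the means. Differences of log2(RPKM + 0.1) were −1.67 (SE 0.66) for Irx1, −2.16 (SE 0.86) for Irx2, −2.04 (SE 0.72) for Irx3, −2.19 (SE 0.67) for Irx3os, −1.52 (SE 0.54) for Irx5 and −1.03 (SE 0.47) for Irx6. The median of the 6 was −1.85, against 0.08 over all 29025 genes that entered the fit. The study's rule, an unadjusted p under 0.05 with a change over 2-fold, was met by 5 of the 6, and by 1.07% of all genes in this direction. ICH and sham did not overlap for Irx5 and Irx3os, as for 6.22% of all genes with ICH below sham. These counts follow from how the genes were chosen.

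Sham replicate 1 carried part of that difference. Without it, the mean of the remaining sham mice fell to 3.54 RPKM for Irx1 and to 1.6 for Irx2, and the median log2 difference was −1.26. The differences were then −1.11 for Irx1, −1.44 for Irx2, −1.41 for Irx3, −1.61 for Irx3os, −1.09 for Irx5 and −0.50 for Irx6, and only Irx3os still met the study's rule. Leaving out sham replicate 3, ICH replicate 1 or ICH replicate 2 also lowered the count, to 2, 2 and 1 genes.

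Febuxostat-treated mice were compared with ICH mice to ask whether the levels differed with the drug. The ICH mice are the same ones whose low values chose the genes, so this comparison is not independent of the choice. All 6 genes had a higher mean in feb. Differences of log2(RPKM + 0.1) were 1.15 for Irx1 (95% interval −0.35 to 2.65), 1.64 for Irx2 (−0.31 to 3.6), 1.68 for Irx3 (0.05 to 3.32), 1.59 for Irx3os (0.06 to 3.12), 1.17 for Irx5 (−0.06 to 2.39) and 0.72 for Irx6 (−0.36 to 1.80). Adjusted p in limma, over all genes tested, was 0.54, 0.505, 0.441, 0.44, 0.464 and 0.594 in that order, so 0 of the 6 passed an adjusted p of 0.05. An unadjusted p under 0.05 was reached by 2 of the 6 in limma and by 0 with voom on the recovered reads.

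The study's rule was met in this comparison by 2 of the 6, Irx3 and Irx3os, and by 1.38% of all genes in the same direction. The median difference was 1.38, against −0.01 over all genes. Every feb value exceeded every ICH value for Irx6 and Irx3os, as for 7.04% of all genes with feb above ICH. The 2 calls were not stable. With the replicate number as a block 0 genes met the rule, and leaving out 1 mouse at a time gave 0 to 5: 0 without sham replicate 3, ICH replicate 1 or 2, or feb replicate 1 or 2, 4 without sham replicate 2, and 5 without feb replicate 3. Without sham replicate 1 the count was 3, with Irx5 added.

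Feb and sham mice were compared to ask whether levels in treated mice differed from those without a hematoma. The sham mice, too, belong to the contrast that chose the genes, so this comparison is not independent of the choice either. Differences of log2(RPKM + 0.1) were −0.51 for Irx1 (95% interval −2.02 to 0.99), −0.52 for Irx2 (−2.48 to 1.44), −0.35 for Irx3 (−1.99 to 1.28), −0.60 for Irx3os (−2.13 to 0.93), −0.35 for Irx5 (−1.58 to 0.88) and −0.32 for Irx6 (−1.39 to 0.76). Adjusted p in limma was 0.806 to 0.9, and 0 of the 6 met the study's rule or reached an unadjusted p under 0.05, in limma or with voom. In this comparison 2.2% of all genes met the rule, in either direction. The intervals include more than 2-fold in the lower direction for all 6, and in the higher direction for Irx2 and Irx3. Differences of that size are therefore not excluded. Without sham replicate 1 the sign turned for 5 of the 6, with differences of 0.04 for Irx1, 0.21 for Irx2, 0.27 for Irx3, 0.08 for Irx5 and 0.22 for Irx6, while Irx3os was at −0.02.

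**Figure D2:**
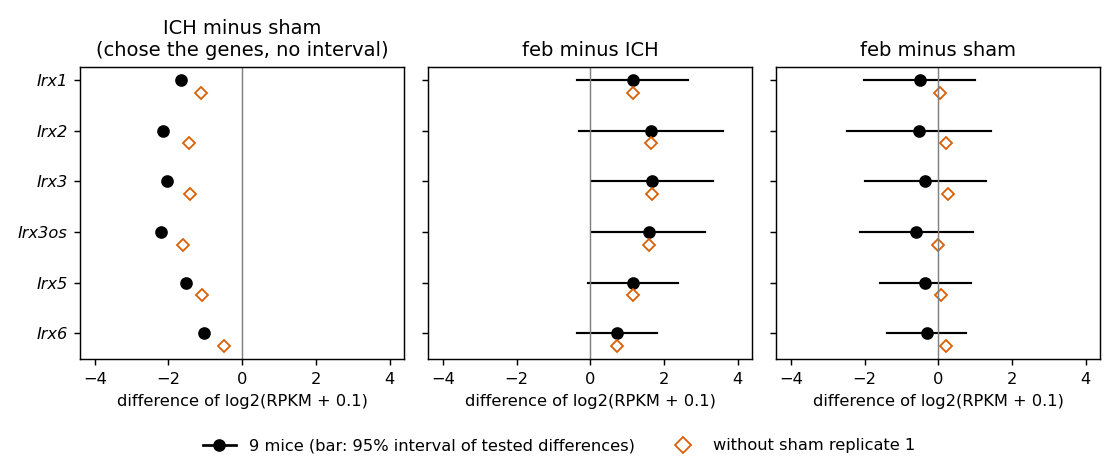
Difference of group means of log2(RPKM + 0.1) for each gene, with 9 mice (filled circles, bars are 95% intervals where the comparison was tested) and without sham replicate 1 (open diamonds). The values lie left of 0 for ICH minus sham and right of 0 for feb minus ICH. Intervals for feb minus ICH include 0 for Irx1, Irx2, Irx5 and Irx6 and lie just above it for Irx3 and Irx3os. For feb minus sham all 6 intervals include 0.

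The members rose and sank together from mouse to mouse within a group. The choice was by group differences, not by this measure, but it was made in these same mice. Each gene's log2 value was taken as a deviation from its group mean, and the 15 pairs of genes were correlated over the 9 mice. Pearson's r was 0.806 to 0.996, with a median of 0.944. Two-sided exact permutation within groups (216 arrangements, smallest possible p 0.00463) gave p of 0.00463 to 0.037, and 15 of 15 pairs kept a Benjamini-Hochberg adjusted p under 0.05 (highest 0.037). Spearman's rho was 0.717 to 1, with exact permutation p up to 0.0926, for Irx6 with Irx3os. Leaving out the 2 mice farthest from the median left r at 0.729 to 0.997.

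Irx1 and Irx3, on different chromosomes, had the highest correlation (r = 0.996, rho = 1, exact permutation p = 0.00463, adjusted p = 0.0208). The lowest was that of Irx6 and Irx3os on chromosome 8 (r = 0.806, exact permutation p = 0.037). The median r was 0.944 for the 7 pairs within a cluster and 0.944 for the 8 pairs between clusters. Members of a pair are measured in the same libraries, and the factors of the same brain regions given below ordered the mice in a similar way. Pairs of other genes were not tested in this way, so a count of correlated pairs does not set the family apart. Without sham replicate 1, 10 of the 15 pairs had an unadjusted exact permutation p under 0.05. Without ICH replicate 3 it was 8, with fewer arrangements available in both.

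**Figure D3:**
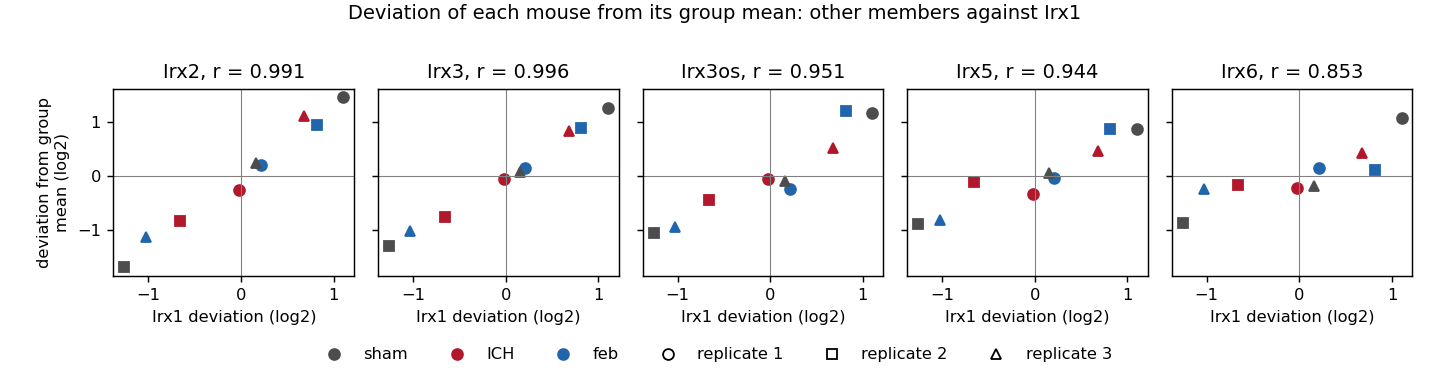
Deviation of each mouse from its group mean in log2(RPKM + 0.1), with Irx1 on the horizontal axis and another member on the vertical axis of each panel, colored by group. The points of all groups fall along a rising line, most closely for Irx3 (r = 0.996) and least for Irx6 (r = 0.853).

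The ratio of antisense to sense RNA at the Irx3 locus was also examined. Irx3os over Irx3, as a ratio of RPKM, was 0.405, 0.458 and 0.368 in sham, 0.247, 0.247 and 0.239 in ICH and 0.245, 0.446 and 0.306 in feb. The ICH ratios lay below all sham ratios, and the feb ratios spanned both. Both genes were chosen on this contrast, and the ICH ratios rest on 5 to 19 Irx3os reads, so no test was made. Irx6 over Irx3 separated the other way, at 0.155, 0.164 and 0.124 in sham and 0.182, 0.382 and 0.208 in ICH, with feb at 0.155, 0.0867 and 0.249, and rests on 6 to 15 Irx6 reads in the ICH mice. ICH and sham overlapped for the other ratios computed. Irx3 over Irx2 was 0.808 to 1.26 over the 9 mice, Irx2 over Irx1 was 0.218 to 0.61 and Irx5 over Irx3 was 0.229 to 0.589.

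Genes next to the 2 clusters were counted by the same rule. Of 67 genes within 1 Mb of a member, 44 entered the fit. In ICH against sham the study's rule was met by 0 higher (1.46% of all genes) and 1 lower (1.07% of all genes). The lower one was the small gene Gm22428 (log2 difference −1.94, limma adjusted p = 0.391). In feb against ICH the rule was met by Gm45665, higher (2, limma adjusted p = 0.428), and Gm45661, lower (−1.47, limma adjusted p = 0.402). Over all genes the shares there were 1.38% higher and 1.05% lower. In feb against sham the rule was met by none, against 2.2% of all genes in either direction. Counts this small do not set the neighbors apart from other genes. Median differences of these neighbors were 0.07, 0.05 and 0.08, near those of all genes. Without sham replicate 1 the rule was met by none of the 44 in ICH against sham or feb against sham, and by Gm45661 alone in feb against ICH, with medians of 0.03, 0.09 and 0.05.

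The nearest neighbors had low levels. Crnde, a long noncoding RNA whose start lies 1505 bp from that of Irx5 in the opposite orientation, was at 0.302 ± 0.161 RPKM in sham, 0.129 ± 0.0306 in ICH and 0.291 ± 0.16 in feb (SD, n = 3). Its log2 differences were −0.75 for ICH minus sham (limma adjusted p = 0.463) and 0.68 for feb minus ICH (limma adjusted p = 0.565). Gm20554, 1807 bp from Irx2, was at 0.137, 0.124 and 0.174 RPKM in sham, ICH and feb. Gm45505, which overlaps Irx6, was at 0.122, 0.068 and 0.0152 RPKM and did not enter the fit.

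A pair of neighbors named after their values were seen shows the range. Fto, whose introns are known to hold long-range enhancers of Irx3, was at 11.9 ± 0.782, 11.5 ± 0.627 and 11.8 ± 0.983 RPKM in sham, ICH and feb (SD, n = 3), with log2 differences of −0.05 and 0.04 for ICH minus sham and feb minus ICH. Slc6a3, the dopamine transporter of midbrain neurons, lies 903 kb from Irx2 and was at 2.99 ± 2.98, 0.0735 ± 0.0843 and 0.664 ± 1 RPKM (SD, n = 3). Its difference for ICH minus sham was −3.15 (SE 1.40, limma adjusted p = 0.408), which did not meet the rule, and −2.60 without sham replicate 1.

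**Figure D4:**
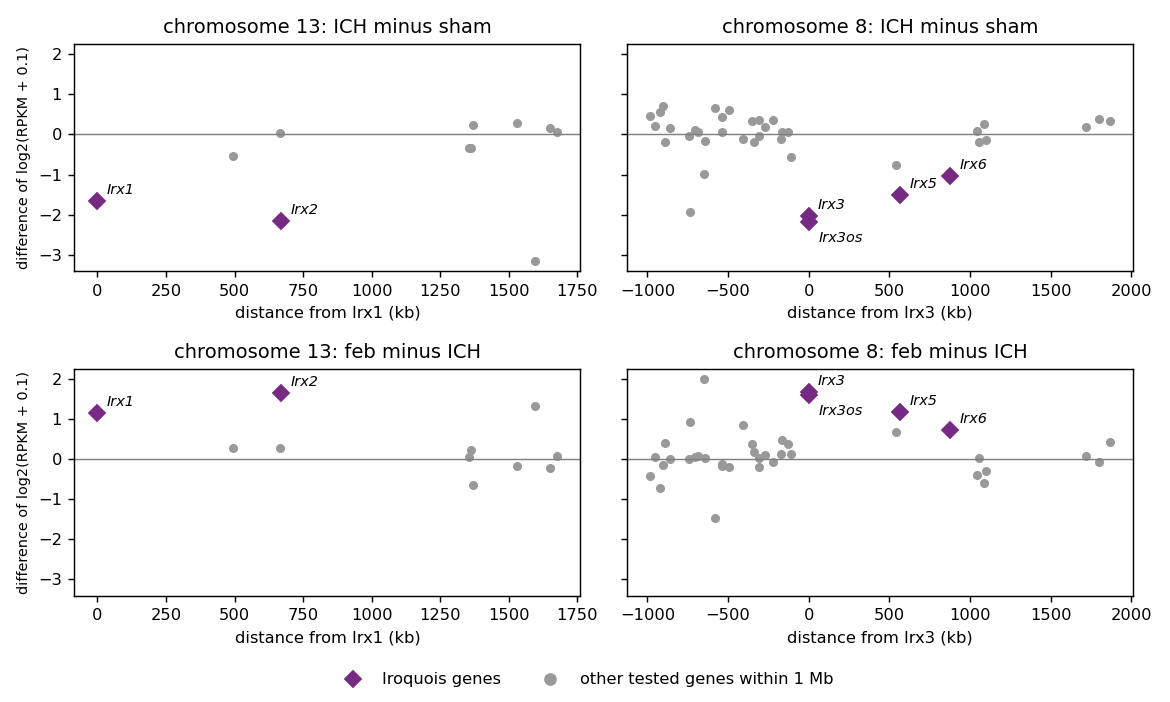
Difference of log2(RPKM + 0.1) against distance along the chromosome, in kb from Irx1 (left) or Irx3 (right), for Iroquois genes (diamonds) and other tested genes within 1 Mb (circles). Most circles lie near 0 while the diamonds lie between −2.19 and −1.03 for ICH minus sham and between 0.72 and 1.68 for feb minus ICH. Only the diamonds were chosen for low values in these ICH mice, so the gap is not independent of the choice. The lowest circle, at −3.15, is Slc6a3.

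The other TALE-class homeobox genes, among them the Meis and Tgif genes, were counted in the same way. All 12 entered the limma fit, and 0 met the study's rule in any of the 3 comparisons. Over all genes it was met by 1.46% higher and 1.07% lower in ICH against sham. The shares were 1.38% and 1.05% in feb against ICH, and 2.2% in either direction in feb against sham. A count of 0 of 12 is near these shares and does not set the 12 apart from other genes. Their median log2 differences were 0.04 for ICH minus sham, −0.04 for feb minus ICH and 0.06 for feb minus sham. Without sham replicate 1 the count was again 0 in each, with medians of 0.06, −0.04 and 0.02.

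Transcription factors of the same brain regions were counted next. Of 21 factors of diencephalon, midbrain and hindbrain patterning, 7 met the rule as lower in ICH than in sham (1.07% of all genes) and 3 as higher in feb than in ICH (1.38% of all genes), with 0 in the other direction in either. The medians over the list were −1.29 and 0.95, beside −0.28 for feb minus sham. Tcf7l2, a factor of thalamic neurons, was at 36.9, 23.1 and 39.2 RPKM in sham, 9.69, 5.39 and 22 in ICH and 26.8, 41.1 and 9.3 in feb. As for Irx1, the highest ICH mouse was replicate 3 and the lowest feb mouse replicate 3. Its log2 difference for ICH minus sham was −1.61 (SE 0.61, limma adjusted p = 0.382), and −1.51 without sham replicate 1, where it did not meet the rule.

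Shox2, a homeobox gene of the thalamus, averaged 15.6 ± 2.87 RPKM in sham, 7.12 ± 6.11 in ICH and 13.7 ± 5.56 in feb (SD, n = 3). En1, a factor of the midbrain and hindbrain junction, was at 2.26, 0.0729 and 1.02 RPKM in sham, at most 0.0437 in ICH and at 0.0864, 1.07 and 0.0661 in feb. It reached 0.1 RPKM only in sham replicates 1 and 3 and feb replicate 2, so it passed the filter only through groups where it was high. En1 is among the 7 that met the rule as lower in ICH, and that call carries no weight. Without sham replicate 1 it did not enter the fit. Sham replicate 1 was the highest mouse for 16 of the 21 factors. Without it 19 of them entered the fit, 2 met the rule as lower in ICH and 4 as higher in feb than in ICH, with medians of −0.81 and 0.93.

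Among 8 factors of the anterior forebrain and cortex, 5 met the rule as higher in ICH than in sham (1.46% of all genes) and 2 as lower in feb than in ICH (1.05% of all genes), with medians of 1.53 and −0.52. In feb against sham 2 met it as higher (1.59% of all genes) and 0 as lower, with a median of 0.58. Neurod6 and Six3 went the other way in feb minus ICH (0.61 and 0.21), without meeting the rule. Tbr1, a factor of cortical projection neurons, was at 2.1, 1.5 and 0.869 RPKM in sham, 6.49, 4.62 and 4.76 in ICH and 1.07, 3.37 and 1.63 in feb, with no overlap between ICH and either other group. Its log2 differences were 1.82 for ICH minus sham and −1.48 for feb minus ICH (SE 0.42 for both, limma adjusted p = 0.33 and 0.302). Without sham replicate 1 the counts were 4 for ICH against sham, 2 for feb against ICH and 3 for feb against sham. Tbr1 still met the rule in the first 2 of these comparisons (2.10 and −1.48).

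Mean log2(RPKM + 0.1) of the Iroquois genes and of the factors of the diencephalon, midbrain and hindbrain ordered the mice in nearly the same way. For the Iroquois genes it was 1.59, −0.75 and 0.48 in sham, −1.49, −1.83 and −0.66 in ICH and 0.07, 0.80 and −0.87 in feb. The 21 factors of the diencephalon, midbrain and hindbrain were at 1.07, −0.83 and 0.42 in sham, −0.95, −1.37 and −0.77 in ICH and −0.07, 0.26 and −0.90 in feb. The 8 anterior factors were at 0.72 to 1.49 in sham, 2.33 to 2.92 in ICH and 1.75 to 2.23 in feb. These lists differ in brain region, and the labels do not say how each brain was cut, so region and group cannot be told apart.

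**Figure D5:**
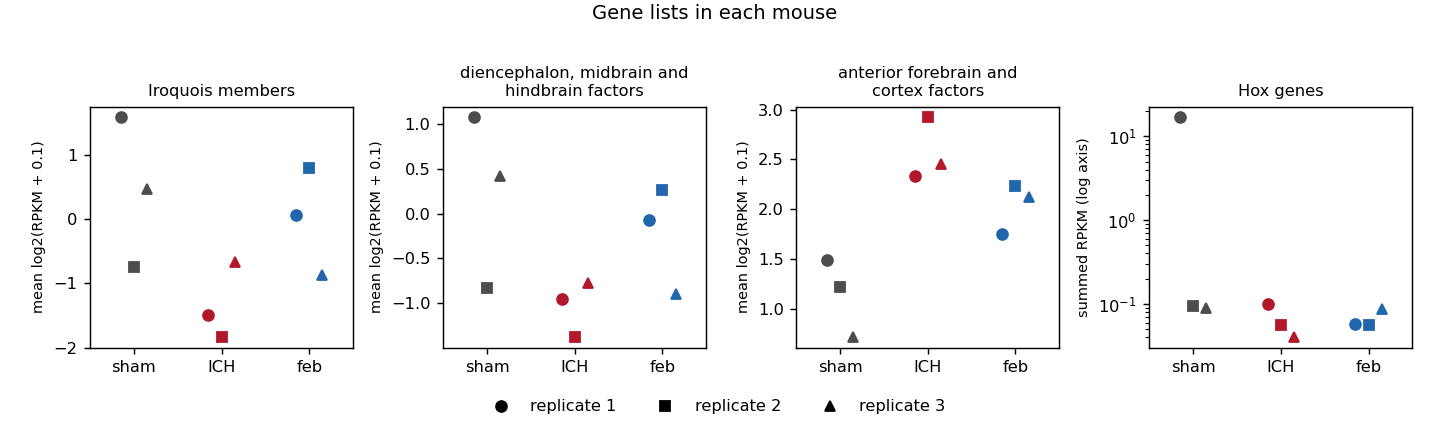
Mean log2(RPKM + 0.1) of the Iroquois genes, of factors of the diencephalon, midbrain and hindbrain and of anterior factors, and summed RPKM of 11 Hox genes on a log axis, in each mouse by group. The first 2 panels rank the mice in nearly the same order, the ICH mice are highest in the third (2.33 to 2.92), and only sham replicate 1 stands out in the fourth (16.8).

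Markers of other cell types were counted as well. Of 8 markers of the choroid plexus, 8 met the rule as lower in feb than in ICH (1.05% of all genes) and 7 as lower in feb than in sham (0.613% of all genes), and 0 differed by it between ICH and sham. These counts were again 8, 7 and 0 without sham replicate 1. Their summed RPKM was 365 to 1030 in sham, 458 to 967 in ICH and 30.6 to 88.4 in feb. Ttr, the main one, averaged 724 ± 337, 728 ± 260 and 50.9 ± 27 RPKM in the 3 groups (SD, n = 3). Of 8 meningeal markers, 1 met the rule as lower in feb than in ICH and 2 as lower in feb than in sham, and none did without sham replicate 1. Markers of ependyma, endothelium, neurons, astrocytes, oligodendrocytes and microglia had none in any comparison. In lists of 4 to 6 genes, a count of 0 is near the shares of all genes and does not set them apart. Mean log2(RPKM + 0.1) of the oligodendrocyte markers was 6.68, 6.13 and 6.60 in sham, 5.89, 5.83 and 6.60 in ICH and 6.00, 6.39 and 5.47 in feb. Within each group this was the order of the mice for Irx1. The microglia markers had a median of −0.68 for feb minus ICH. The part of any of these cell types in the Iroquois levels was not tested.

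Last, genes whose profile over the 9 mice was most like the family's were ranked as a description. The family profile was the mean of the members' standardized log2 values, at 1.80, −0.43 and 0.70 in sham, −1.13, −1.40 and −0.35 in ICH and 0.34, 0.99 and −0.52 in feb, and each member correlated with it at r = 0.945 (Irx6) to 0.994 (Irx3). Among 17658 genes with a mean of at least 1 RPKM, the 10 with the highest r were Pfkm (0.988), Nt5c2 (0.986), Amotl2 (0.985), Rab11b (0.982), Vamp1 (0.981), Nefh (0.980), Gm20441 (0.977), Ddt (0.976), Ccdc92 (0.973) and Pigyl (0.972). None lies within 1 Mb of a member. All points of these correlations come from the same 9 libraries.

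Several of the 10 differed little in size between groups. Pfkm, the muscle-type phosphofructokinase, averaged 89.7 ± 5.91 RPKM in sham, 81.6 ± 2.78 in ICH and 86.7 ± 2.73 in feb (SD, n = 3). Nefh, the heavy neurofilament of large axons, had a wider range, at 146, 57.3 and 98.4 RPKM, as did Vamp1, a synaptic vesicle protein, at 9.78, 4.06 and 6.91. Gene by gene, Amotl2 was first for Irx1 (r = 0.990) and Irx2 (0.983), Nt5c2 for Irx3 (0.990), Pigyl for Irx5 (0.990), Ddt for Irx3os (0.991) and Apol8 for Irx6 (0.976). With Spearman's rho in place of r, only Amotl2 and Nefh stayed among the 10.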

How the data were processed

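Total brain RNA of 9 mice was depleted of rRNA, prepared with a stranded kit with molecular identifiers and sequenced in pairs. Per the submitters' processing notes, reads were trimmed with Trimmomatic 0.36 and counted per gene on GRCm38 with featureCounts of Subread 1.5.1, and edgeR 3.12.1 was named. The deposited values are RPKM, made by the authors from those counts. Multiplied by gene length they gave whole reads for 100% of values (tolerance 0.02), 23065757 to 29538009 per mouse, so counting error weighs most on low genes.

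Here log2(RPKM + 0.1) was fitted with limma 3.58.1 (R 4.3.3, trended eBayes) in all 9 mice, over 29025 genes with at least 0.1 RPKM in at least 3 mice. All 6 members passed that filter. P-values were adjusted by Benjamini-Hochberg over all of them, and genes with an unadjusted p under 0.05 and a change over 2-fold were called, after the study. Nothing states that mice were housed or processed apart, so p-values measure the spread between these samples, which may be technical. Correlations within groups used exact permutation (scipy 1.17.1). Exons equalled GENCODE M21 for 5 of 6 members. Other settings tried were the pseudocount, the filter, scaling, voom on the recovered reads, the replicate block and leaving out each mouse. The fit was also run on simulated reads, with changes only in genes of higher counts and less spread between mice than the members had. That check does not cover members with few reads.

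Members, lists and tests were chosen with earlier results of these data known. Every member is named with its value in every mouse, other lists by counts with at most 4 genes, neighbors by distance or call, and similar genes by the highest correlation. The list and neighbor values without sham replicate 1 were added after seeing the data. Single genes of the lists that are withheld are not reported here.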

Additional observations from a re-analysis of the deposited data

How the results depend on the processing

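ICH minus sham stayed below 0 for all 6 members and feb minus ICH above 0 under each of the 19 other settings that gave a value. Members meeting the rule for ICH against sham were 5, but 3 with a pseudocount of 1, 3 with at least 1 RPKM in at least 3 mice (which removes Irx5, Irx6 and Irx3os), and 1 to 6 when a mouse was left out. For feb against ICH they were 2, but 0 with a pseudocount of 1, with quantile normalization, without the eBayes trend, with the replicate block and with voom on recovered reads, 1 with the 1 RPKM filter or equal medians, 4 in a fit of only the compared groups, and 0 to 5 when a mouse was left out. With an adjusted p under 0.05 in place of the fold rule they were 0 in each comparison. For feb against sham they were 0 throughout. Pairs correlated within groups, by an unadjusted exact permutation p under 0.05, were 15, and 8 to 14 when a mouse was left out. Leaving out a mouse moved feb minus sham from −1.14 to 0.04 for Irx1, −1.37 to 0.21 for Irx2, −1.01 to 0.27 for Irx3, −0.80 to 0.08 for Irx5 and −0.76 to 0.22 for Irx6. It turned positive without sham replicate 1 for these 5, and without feb replicate 3 for Irx2 (0.05), Irx3 (0.16) and Irx5 (0.06). The cause was not tested. Same-numbered mice deviated with correlations of −0.13 to 0.02 over all genes, so the replicate numbers did not pair them, and the block left the ICH against sham count at 5. Few reads limit Irx5, Irx6 and Irx3os in the ICH mice, at 5 to 19 reads each.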
